A study of Homo sapiens with 14 samples.

Results

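Homologous recombination and Fanconi repair genes were followed in 2 lung adenocarcinoma cell lines treated with AMG900. The set held 44 genes, chosen by name with earlier results of these data known. They were matched to the gene symbols of the count tables (MRE11A is the symbol that the tables use for MRE11). All 44 were listed among the 26760 gene symbols of the A549 table and the 26732 of the H1792 table. After genes with too few reads were removed, 42 members were tested in A549 and 44 in H1792. BRCA2 and FANCB were not tested in A549.

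Homologous recombination repairs a broken chromosome by copying the sister chromatid. The ends are first cut back to single strands, a recombinase is loaded with the help of the BRCA proteins, the strand invades the sister, and the joined molecules are then dissolved or cut. The Fanconi pathway clears crosslinks that stall replication forks: a core complex, helped by UBE2T, attaches ubiquitin to FANCD2 and FANCI, and USP1 removes it. Many of these genes are known to be transcribed mainly around S phase.

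A549 and H1792 are established human lung adenocarcinoma lines. Cells received 0.1 µM AMG900, an inhibitor of the aurora kinases, or its solvent DMSO, and RNA was collected after 48 h. A549 was grown in DMEM and H1792 in RPMI 1640, both with serum, and the labels name no genetic change in any group. There were 4 DMSO and 4 AMG900 libraries of A549 and 3 DMSO and 3 AMG900 libraries of H1792. The protocol names 3 replicates per treatment, and nothing else says how the replicates were kept apart, so a p-value measures the spread between these libraries.

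Libraries of A549 held between 4254644 and 18962883 counted reads and those of H1792 between 42760874 and 79902934, so low genes were measured more precisely in H1792. A549 DMSO replicate 1 was the shallowest library. Of 6 epithelial markers, 5 had a mean of at least 1 CPM (counts per 1000000 counted reads) in each line. Fibroblast markers, of which 1 of 6 reached 1 CPM in A549 and 6 of 6 in H1792, summed to between 85.4 and 121 CPM with DMSO and 39.6 and 49.1 CPM with AMG900 in A549, and to between 3466 and 4391 CPM and 2567 and 2640 CPM in H1792. Blood cell markers, of which 1 of 6 and 2 of 6 reached 1 CPM, summed to between 58.3 and 83.2 CPM and 149 and 170 CPM in A549, and to between 97.9 and 113 CPM and 169 and 195 CPM in H1792, with CD3E at 0 in A549. Endothelial markers summed to at most 16.1 CPM in any library, with TEK at 0 in H1792. The part of these markers in the members' values was not tested. Calls below are those of the edgeR quasi-likelihood test with a Benjamini-Hochberg adjusted p below 0.01 over all genes tested, fold changes are AMG900 against DMSO on the log2 scale with their standard errors (SE), and CPM values are scaled by TMM factors within a line, except for CPM per kb, which is scaled over both lines. In such bulk samples, fewer cells in a cell cycle stage and less RNA per cell cannot be told apart.

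In A549, 32 of the 42 tested members were downregulated by AMG900 and 0 were upregulated at this threshold. By edgeR, 0 were higher at an unadjusted p below 0.05, and by DESeq2 0 were upregulated. Over all 13174 genes tested, 17.7% were lower and 17.2% higher. The median log2 fold change of the members was -1.71, against -0.010 for all genes. Levels of the downregulated members lay between 6.18% and 78.8% of their DMSO level. Decreases of at least 2-fold were called for 28 members, where 5.83% of all genes were called so, and every AMG900 library was below every DMSO library for 36 members, against 22.0% of all genes. The 10 members not called were ATM, ATR, CHEK2, NBN, RAD52, MUS81, SLX4, FAN1, FANCF and FANCL. By DESeq2, 34 members were lower, with ATR and FANCL added.

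In H1792, 14 of 44 members were downregulated, where 18.8% of all 15017 genes tested were lower, and EME1 was upregulated, where 16.2% were higher. The median log2 fold change was -0.26, against 0.009 for all genes. Decreases of at least 2-fold were called for 8 members, against 5.20% of all genes, and every AMG900 library was below every DMSO library for 21 members, against 29.6% of all genes. Of the 42 members tested in both lines, 12 were downregulated in both (12 of the 32 of A549 and 12 of the 14 of H1792), where 9.28% of the 12625 genes tested in both were. NBN and ATR were called in H1792 only, which says nothing of a difference between the lines, since neither was called by the test of the difference.

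**Figure D1:**
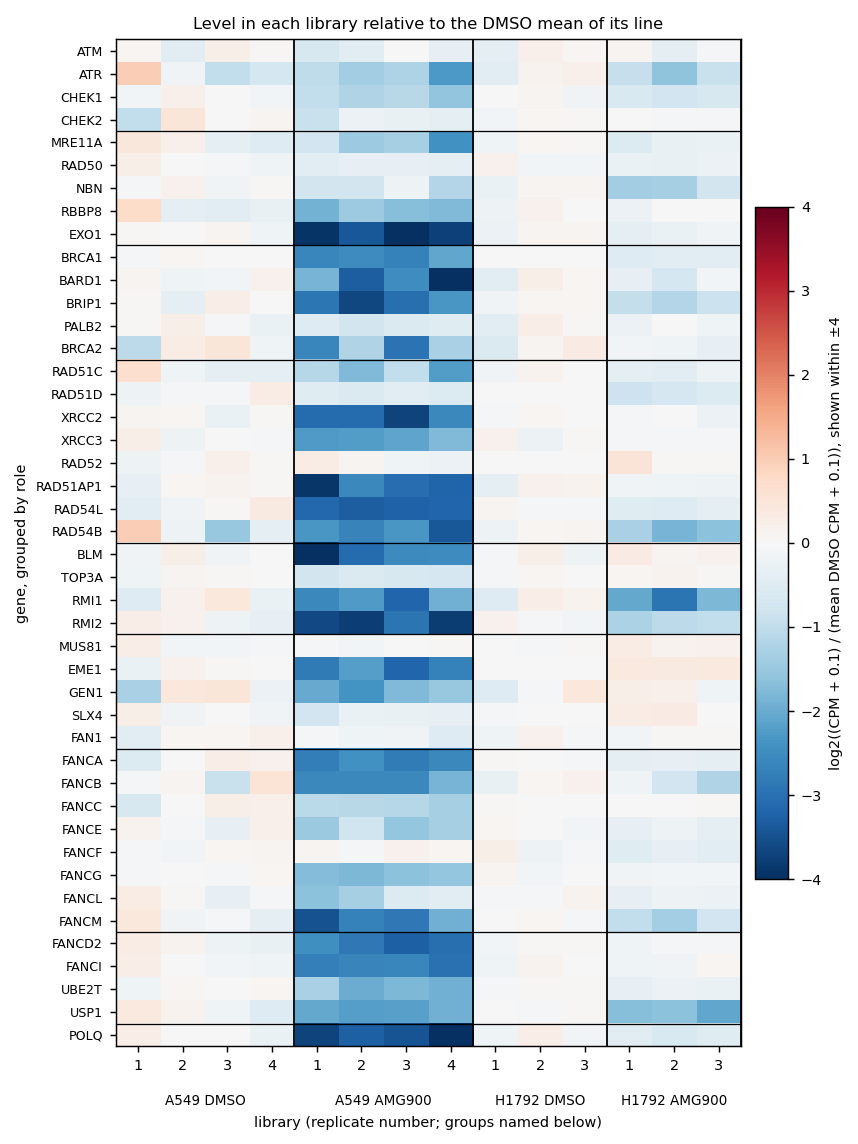
Level of the 44 genes (rows, grouped by role) in each of the 14 libraries (columns), as the log2 ratio of CPM + 0.1 to the DMSO mean of the same line. The A549 AMG900 columns are blue for most genes, while the H1792 AMG900 columns are pale except for genes such as RMI1, USP1 and RAD54B.

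**Figure D2:**
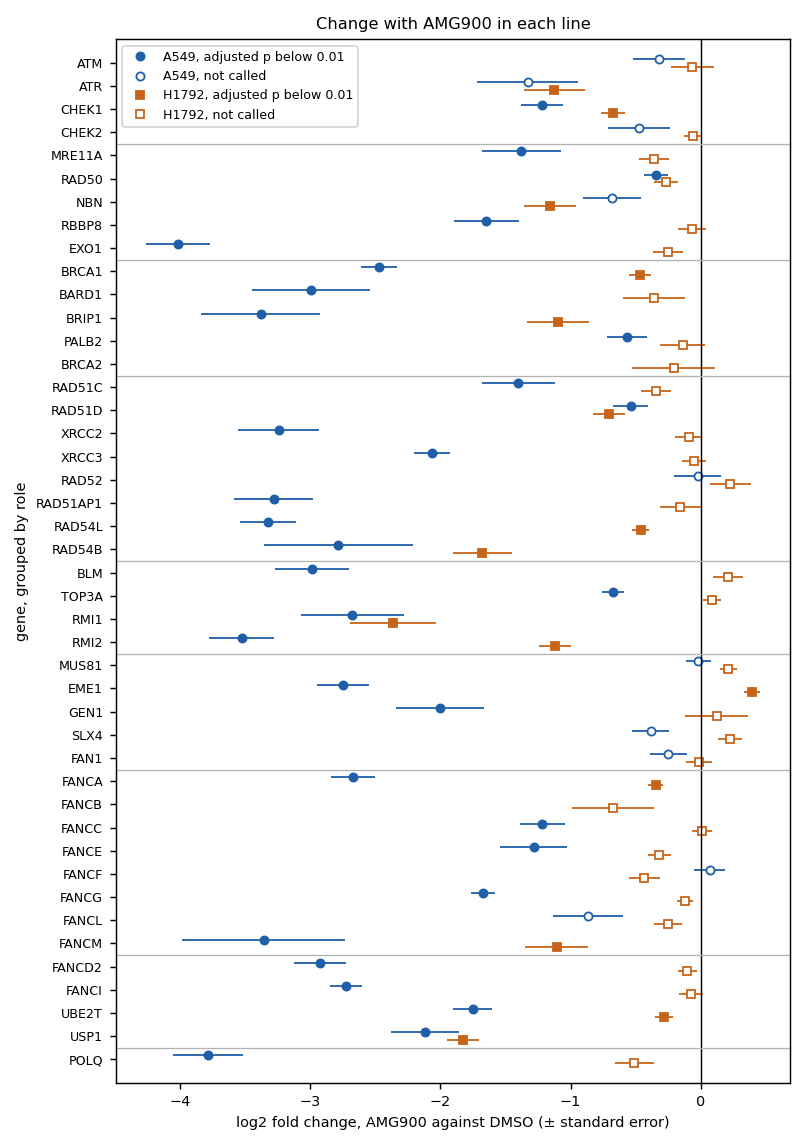
Log2 fold change with AMG900 (x axis) of each gene in A549 (circles) and H1792 (squares), with bars of 1 SE. Filled symbols passed an adjusted p of 0.01. BRCA2 and FANCB have no A549 symbol because they were not tested there.

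Of the kinases that signal damage, CHEK1 was called in A549, and CHEK1 and ATR were called in H1792. ATM and CHEK2 respond mainly to broken ends, and ATR and CHEK1 to exposed single strands at stalled forks.

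CHEK1 stood at 14.3, 17.9, 15.2 and 14.4 CPM in the A549 DMSO libraries and at 7.84, 6.67, 7.07 and 5.11 CPM with AMG900. In H1792 it was at 18.1, 19.3 and 16.2 CPM with DMSO and at 11.7, 10.5 and 11.5 CPM with AMG900. The groups did not overlap in either line, with log2 fold changes of -1.22 ± 0.16 (SE, adjusted p = 2.44e-05) in A549 and -0.67 ± 0.09 (adjusted p = 0.000182) in H1792. The difference between the lines was 0.48 ± 0.19 and missed the threshold (adjusted p = 0.0657). It was called in 1 of 21 alternatives, DESeq2 (adjusted p = 0.00903).

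ATR stood at 17.6, 8.10, 4.41 and 5.402 CPM in A549 with DMSO and at 4.35, 3.30, 3.72 and 1.75 CPM with AMG900. The groups came close but did not overlap, and the highest DMSO value was that of the shallow replicate 1. The log2 fold change of -1.33 ± 0.39 just missed the threshold (adjusted p = 0.0113). ATR was called in 8 of 16 alternative analyses, among them DESeq2 and those without DMSO replicate 1, 3 or 4. In H1792, ATR was at 2.80, 4.12 and 4.38 CPM with DMSO and at 1.94, 1.18 and 1.99 CPM with AMG900, a log2 fold change of -1.13 ± 0.24 (adjusted p = 0.00262). That call was lost without DMSO replicate 3, when all libraries shared a fit, and after a correction for the GC content of transcripts, where the fold change was -0.76 (adjusted p = 0.0116), with adjusted p-values of up to 0.0211 over the alternatives.

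ATM ranged from 6.19 to 10.0 CPM with DMSO and from 5.39 to 8.58 CPM with AMG900 in A549, and from 4.77 to 7.08 CPM and from 4.77 to 6.57 CPM in H1792. CHEK2 ranged from 4.23 to 11.9 CPM with DMSO and from 4.44 to 7.16 CPM with AMG900 in A549, and from 30.1 to 34.3 CPM and from 30.8 to 32.2 CPM in H1792. The groups of both genes overlapped in both lines, and their log2 fold changes were -0.32 ± 0.20 and -0.07 ± 0.17 for ATM and -0.48 ± 0.24 and -0.06 ± 0.07 for CHEK2, in A549 and H1792 in turn. CHEK2 was called in A549 only when DMSO replicate 1, its lowest DMSO library, was left out.

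Among the factors that recognise and cut back broken ends, EXO1 changed most in A549. EXO1 is the exonuclease of long-range resection. It was at 16.2, 15.9, 16.9 and 14.01 CPM with DMSO and at 0.945, 1.40, 0.485 and 1.10 CPM with AMG900. No AMG900 library came near a DMSO library, and the log2 fold change was -4.02 ± 0.24 (adjusted p = 7.72e-09). In H1792, EXO1 was at 8.32, 10.8 and 10.6 CPM with DMSO and at 7.72, 8.23 and 8.92 CPM with AMG900, so that the groups overlapped (log2 fold change -0.25 ± 0.12, adjusted p = 0.101). Without H1792 DMSO replicate 1, EXO1, MRE11A, RAD51C and POLQ were called lower in H1792 as well, and 18 members in all.

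RBBP8 (CtIP), which starts resection, fell by 1.65 on the log2 scale in A549, and its change in H1792 was -0.07 (adjusted p = 0.638). Of the MRE11-RAD50-NBN complex that binds the ends, MRE11A fell in A549 (-1.38) and RAD50 fell by a small amount (-0.34), while NBN was at -0.68 (adjusted p = 0.0198). The RAD50 call was held in 6 of 16 alternatives, being lost without DMSO replicate 2 or 3 or any AMG900 replicate, and after the GC correction its log2 fold change was 0.022. The MRE11A call was lost after the GC correction (-0.92, adjusted p = 0.015).

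NBN was the member of that complex called in H1792. It was at 4.33, 5.66 and 5.61 CPM with DMSO and at 1.92, 1.997 and 3.08 CPM with AMG900, without overlap, and the log2 fold change was -1.16 ± 0.20 (adjusted p = 0.000809). In A549 it was at 6.34, 7.46, 6.05 and 6.83 CPM with DMSO and at 3.97, 3.93, 5.77 and 2.91 CPM with AMG900. The A549 groups did not overlap either, and NBN passed there without AMG900 replicate 3. The H1792 call was lost after the GC correction (-0.55, adjusted p = 0.0221).

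All 4 tested members of the BRCA complexes were downregulated in A549. BRCA1 and BARD1 form a ubiquitin ligase, PALB2 bridges BRCA1 to BRCA2, and BRIP1 is a helicase bound by BRCA1. BRCA1 averaged 46.0 ± 1.81 CPM (SD, n = 4) with DMSO and 8.27 ± 1.74 CPM (SD, n = 4) with AMG900, a log2 fold change of -2.47 ± 0.14 (adjusted p = 2.81e-09). In H1792 it averaged 12 ± 0.196 CPM (SD, n = 3) and 8.69 ± 0.333 CPM (SD, n = 3), a smaller decrease of 0.47 on the log2 scale (adjusted p = 0.00111) that missed the threshold after the GC correction. BARD1 fell by 3.00 in A549, where the AMG900 libraries held 1 to 13 reads of it, and was at -0.36 in H1792. PALB2 fell by only 0.57 in A549, a call held in 7 of 16 alternatives and lost without DMSO replicate 2 or 3 or any AMG900 replicate, and was at -0.14 in H1792.

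BRIP1 was called in both lines at low counts. In A549 it was at 2.12, 1.55, 2.47 and 2.02 CPM with DMSO and at 0.189, 0.0702, 0.162 and 0.323 CPM with AMG900, where each library held at most 5 reads. H1792 libraries stood at 1.16, 1.38 and 1.37 CPM with DMSO and at 0.617, 0.519 and 0.674 CPM with AMG900. The groups did not overlap in either line, and the log2 fold changes were -3.38 ± 0.46 (adjusted p = 2.98e-05) and -1.10 ± 0.24 (adjusted p = 0.00344). The H1792 call was lost after the GC correction and without DMSO replicate 3 or any of the AMG900 replicates.

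BRCA2, which loads the recombinase, was too low to test in A549, with 2, 15, 21 and 16 reads in the DMSO libraries and 1, 6, 1 and 6 in the AMG900 libraries. In H1792 its log2 fold change was -0.21 ± 0.32 (adjusted p = 0.617).

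Of 8 strand invasion factors, 7 were downregulated in A549 and 3 in H1792. RAD51AP1 and the RAD54 proteins help the recombinase pair strands, and RAD51C, RAD51D, XRCC2 and XRCC3 are its paralogs. RAD54L was at 9.87, 12.02, 13.7 and 17.04 CPM with DMSO and at 1.42, 1.26, 1.29 and 1.36 CPM with AMG900 in A549. The H1792 values were 51.7, 46.4 and 46.2 CPM with DMSO and 34.2, 33.8 and 36.7 CPM with AMG900. Both lines separated without overlap, by -3.33 ± 0.22 (adjusted p = 1.61e-08) and -0.46 ± 0.07 (adjusted p = 0.000338) on the log2 scale.

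RAD51AP1 and XRCC2 separated in A549 but not in H1792. RAD51AP1 was at 4.46, 5.92, 6.204 and 5.70 CPM with DMSO and 0.283, 0.842, 0.593 and 0.517 CPM with AMG900 in A549, and at 3.41, 5.01 and 4.97 CPM and then 4.06, 3.99 and 3.89 CPM in H1792. XRCC2 was at 5.88, 5.83, 4.56 and 5.64 CPM with DMSO and 0.567, 0.562, 0.324 and 0.840 CPM with AMG900 in A549, and at 7.69, 8.72 and 8.21 CPM and then 7.99, 8.15 and 6.93 CPM in H1792. The A549 log2 fold changes were -3.28 ± 0.30 for RAD51AP1 (adjusted p = 7.05e-07) and -3.24 ± 0.31 for XRCC2 (adjusted p = 9.76e-07), and those of H1792 were -0.16 ± 0.16 and -0.09 ± 0.10, with groups that overlapped.

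RAD54B was called in both lines. In A549 it was at 4.70, 2.003, 0.747 and 1.78 CPM with DMSO, a wide spread, and at 0.378, 0.281, 0.378 and 0.129 CPM with AMG900. Those A549 AMG900 libraries held 2 to 7 reads of RAD54B. In H1792 it was at 2.14, 2.67 and 2.71 CPM with DMSO and at 0.952, 0.619 and 0.744 CPM with AMG900. All AMG900 libraries were below all DMSO libraries of their line, and the log2 fold changes were -2.78 ± 0.57 (adjusted p = 0.0011) and -1.68 ± 0.22 (adjusted p = 0.000164).

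The paralogs RAD51C, RAD51D and XRCC3 fell by 1.40, 0.54 and 2.06 on the log2 scale in A549. In H1792 RAD51D fell by 0.70, and RAD51C and XRCC3 were at -0.35 and -0.05. The A549 call of RAD51D was held in 10 of 16 alternatives and lost without DMSO replicate 4 or any AMG900 replicate. RAD52, an annealing protein, was not called in either line (-0.02 ± 0.18 and 0.23 ± 0.16).

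All 4 members of the complex that dissolves double Holliday junctions fell in A549, but they parted in H1792. BLM is its helicase, TOP3A its topoisomerase, and RMI1 and RMI2 its scaffold subunits. RMI1 and RMI2 fell in H1792, where BLM and TOP3A did not pass.

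RMI1 was at 1.88, 3.10, 3.66 and 2.26 CPM with DMSO and 0.378, 0.491, 0.216 and 0.646 CPM with AMG900 in A549. Those A549 AMG900 libraries held 4 to 10 reads of RMI1. H1792 libraries stood at 1.80, 3.16 and 2.87 CPM with DMSO and 0.553, 0.260 and 0.674 CPM with AMG900. The groups did not overlap in either line. The log2 fold changes were -2.68 ± 0.40 (adjusted p = 7.28e-05) and -2.36 ± 0.33 (adjusted p = 0.000234), and their difference was 0.26 ± 0.55 (adjusted p = 0.777).

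RMI2 was at 16.7, 15.7, 11.9 and 11.04 CPM with DMSO and at 1.04, 0.912, 1.73 and 0.905 CPM with AMG900 in A549. In H1792 it was at 10.9, 9.15 and 9.10 CPM with DMSO and 3.99, 4.65 and 4.86 CPM with AMG900. The groups did not overlap in either line, and the log2 fold changes were -3.53 ± 0.25 (adjusted p = 4.46e-08) and -1.12 ± 0.12 (adjusted p = 4.66e-05).

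BLM was at 12.4, 16.1, 12.3 and 13.9 CPM with DMSO and at 0.472, 1.54, 2.27 and 2.33 CPM with AMG900 in A549, a log2 fold change of -2.99 ± 0.29 (adjusted p = 1.05e-06). H1792 libraries stood at 11.4, 13.9 and 10.4 CPM with DMSO and at 14.8, 12.9 and 13.5 CPM with AMG900. The H1792 groups overlapped and the log2 fold change was 0.21 ± 0.11 (adjusted p = 0.157), which was called only after the GC correction. TOP3A fell by 0.67 in A549 and was at 0.09 in H1792.

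The structure-specific nucleases, which cut joined or crosslinked DNA, were the role group with the smallest median change in A549, -0.38. EME1, partner of MUS81, and GEN1 fell by 2.75 and 2.003 on the log2 scale. MUS81, SLX4 and FAN1 were at -0.02, -0.38 and -0.25 and were not called, although SLX4 was called after the GC correction (-0.69). EME1 was at 16.2, 22.3, 20.2 and 19.7 CPM with DMSO and at 2.65, 4.14, 2.10 and 2.91 CPM with AMG900 in A549.

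EME1 was also the member that rose in H1792, which is why its libraries are given although the rule for full values did not name it. It was at 24.3, 24.5 and 24.02 CPM with DMSO and at 32.02, 31.4 and 32.1 CPM with AMG900 there. The H1792 groups did not overlap, and the log2 fold change was 0.39 ± 0.06 (adjusted p = 0.000504). The call was lost when all libraries shared a fit, with adjusted p-values of up to 0.0231 over the alternatives.

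**Figure D3:**
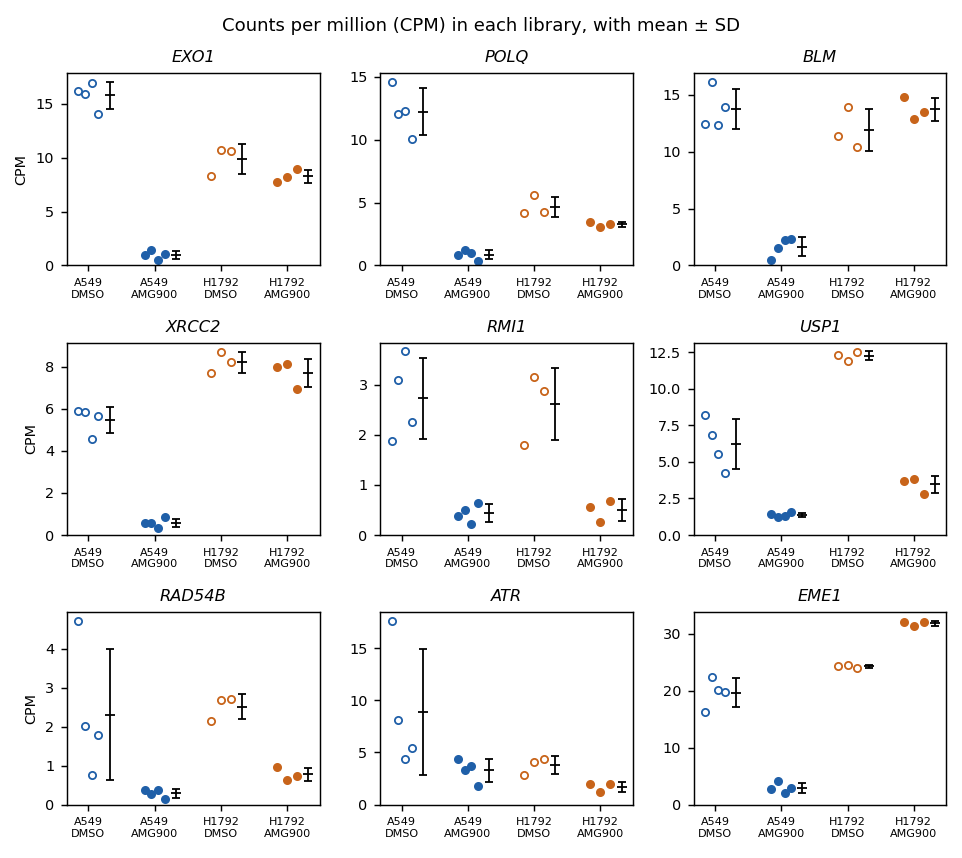
CPM (y axis, from 0) of 9 genes in every library, with the mean ± SD beside each group (open circles DMSO, filled circles AMG900, blue A549, orange H1792). EXO1, BLM and XRCC2 separated without overlap in A549 alone, RMI1, USP1 and RAD54B were lower with AMG900 in both lines, and EME1 was lower in A549 and higher in H1792.

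Of 7 tested genes of the Fanconi core complex and its anchor FANCM, 5 were downregulated in A549 and 2 of 8 in H1792. FANCM, a translocase that brings the complex to DNA, was at 1.41, 0.910, 0.972 and 0.772 CPM with DMSO in A549, and the AMG900 libraries held 0, 1, 1 and 3 reads of it. In H1792 it was at 1.57, 1.68 and 1.48 CPM with DMSO and at 0.746, 0.559 and 0.882 CPM with AMG900. The groups did not overlap in either line, and the log2 fold changes were -3.36 ± 0.62 (adjusted p = 0.000494) and -1.11 ± 0.24 (adjusted p = 0.00315). Without A549 AMG900 replicate 4 the A549 value was -4.12, and the H1792 call was lost after the GC correction and without AMG900 replicate 1 or 2.

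FANCA fell by 2.67 in A549 and by 0.35 in H1792, where the call was lost when all libraries shared a fit. FANCG, FANCE and FANCC fell by 1.68, 1.28 and 1.22 in A549 and were at -0.12, -0.32 and 0.01 in H1792. FANCE (adjusted p = 0.0114) was called lower in H1792 in 4 of 14 alternatives, DESeq2 among them, and FANCG after the GC correction (-0.30). FANCL, the ligase subunit, was at -0.87 in A549 (adjusted p = 0.0158) and -0.25 in H1792. It was called lower in A549 in 4 of 16 alternatives, DESeq2 among them. After the GC correction it was called higher in H1792 (0.50, adjusted p = 0.00292). FANCF was at 0.07 in A549 and -0.43 in H1792 (adjusted p = 0.0107). It was called lower in H1792 in 5 of 14 alternatives, among them DESeq2 and the fit without DMSO replicate 2. FANCB was too low to test in A549, with 2, 6, 3 and 13 reads in the DMSO libraries and 0, 0, 0 and 1 in the AMG900 libraries.

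The pair of proteins that carry the ubiquitin mark and the enzymes that add and remove it all fell in A549, by 2.92 for FANCD2, 2.72 for FANCI, 1.75 for UBE2T and 2.12 for USP1. FANCI averaged 96.8 ± 14.04 CPM (SD, n = 4) with DMSO and 14.5 ± 1.64 CPM (SD, n = 4) with AMG900. In H1792 FANCD2 and FANCI were at -0.10 and -0.08, and UBE2T fell by 0.28, a call held in 6 of 14 alternatives, lost without DMSO replicate 2 or 3 or any AMG900 replicate, and at 0.089 after the GC correction.

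USP1 fell in both lines. It was at 8.22, 6.83, 5.53 and 4.27 CPM with DMSO and at 1.42, 1.26, 1.29 and 1.55 CPM with AMG900 in A549. H1792 libraries stood at 12.3, 11.9 and 12.6 CPM with DMSO and 3.70, 3.85 and 2.82 CPM with AMG900. The groups of neither line overlapped, and the log2 fold changes were -2.12 ± 0.26 (adjusted p = 1.41e-05) and -1.83 ± 0.12 (adjusted p = 3.68e-06), and their difference was 0.19 ± 0.28 (adjusted p = 0.657).

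POLQ, the polymerase of theta-mediated end joining, an alternative to recombination, was at 14.6, 12.02, 12.3 and 10.1 CPM with DMSO and at 0.850, 1.19, 1.02 and 0.388 CPM with AMG900 in A549. In H1792 it was at 4.14, 5.58 and 4.29 CPM with DMSO and 3.45, 3.06 and 3.30 CPM with AMG900. The groups did not overlap in either line. The log2 fold change was -3.79 ± 0.27 (adjusted p = 4.73e-08) in A549 and -0.51 ± 0.15 (adjusted p = 0.015) in H1792, which did not pass.

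The difference between the lines was tested by an interaction term in a fit over all libraries. Line, medium, depth and count table cannot be told apart in it. The difference was called for 21 members, all with a log2 fold change higher in H1792. Over all 14769 genes tested, 5.37% were called in that direction and 9.17% in the other. The differences were led by EXO1 (3.70 ± 0.27, adjusted p = 5.84e-09), POLQ (3.20 ± 0.31, adjusted p = 2.81e-07) and BLM (3.11 ± 0.31, adjusted p = 3.9e-07), and the smallest was that of TOP3A (0.69). In edgeR, 0 members were called with a lower fold change in H1792, 1 had an unadjusted p below 0.05, and DESeq2 called 0. The lowest differences were those of FANCF (-0.57, adjusted p = 0.0203, called without H1792 DMSO replicate 2) and NBN (-0.55, adjusted p = 0.212). The call of BRIP1 (2.25) was lost without H1792 DMSO replicate 1 or AMG900 replicate 1 or 3, with adjusted p-values of up to 0.0123. FANCB (3.89, adjusted p = 0.0109), FANCE (0.90), FANCM (2.25) and SLX4 (0.53) missed the threshold. FANCB was called in 8 of 20 alternatives and FANCE in 9 of 21. Both were called with DESeq2, its size factors, total counts, no filter and the GC correction. SLX4 was called in 2 of 21, DESeq2 and the GC correction. FANCB also passed without A549 DMSO replicate 1 or 3 or H1792 AMG900 replicate 3. FANCE also passed without A549 DMSO replicate 1 or 3 or A549 AMG900 replicate 2. FANCM passed in 1 of 20, without A549 AMG900 replicate 4, where the difference was 3.09. Without that library the FANCB difference was 6.36, a fitted value against A549 AMG900 libraries that then all held 0 reads, and no bound.

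The promoters of the members were read from a RefSeq table of windows around gene starts, from 250 bases before to 50 bases after, which held 40 of the 44 genes. An E2F motif (TTTNNCGC with C or G at each N) and a CHR motif (TTTGAA or TTCGAA) were searched on both strands, in any window of a gene. E2F motifs are known from S-phase gene promoters and CHR motifs from those of late cell cycle genes. The E2F motif was found in 7 of the 40 members, or 17.5%, against 3.99% of all 27305 genes in the table, tested here or not. All 7 were downregulated in A549 (7 of 29 such genes with a window), and it was found in 0 of 9 members not called there. Most members with a window were lower there, and a link between the motif and the decrease was not tested. The CHR motif was found in 7 of 40 members, or 17.5%, and in 19.5% of all genes. A match is a string of letters and not a measured site.

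The E2F matches, shown because their share was higher among the members than among all genes, are given here in the gene's own direction, with the motif or its reverse complement in capitals. Positions are those of an exact match to GRCh37.
EXO1 (chr1:242011499-242011528, + strand): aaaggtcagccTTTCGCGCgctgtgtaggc
XRCC2 (chr7:152373187-152373216, - strand): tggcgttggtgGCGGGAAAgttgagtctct
RMI1 (chr9:86595677-86595706, + strand): ggcgcgagcgcGCGGCAAAtcgggcgggaa
GEN1 (chr2:17935126-17935155, + strand): cagttgcggggTTTCGCGCcgccggagtct
FANCA (chr16:89883209-89883238, - strand): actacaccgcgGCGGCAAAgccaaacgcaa
FANCC (chr9:98080145-98080174, - strand): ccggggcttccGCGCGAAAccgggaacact
FANCD2 (chr3:10068108-10068137, + strand): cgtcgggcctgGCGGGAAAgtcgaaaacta

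Longer stretches, from 100 bases before to 20 after the start, are given for the 3 members with a window that fell most in A549 and for the 2 uncalled members whose change was nearest to 0. Capitals mark either motif. RMI2 is not in the table.
EXO1 (chr1:242011406-242011525, + strand): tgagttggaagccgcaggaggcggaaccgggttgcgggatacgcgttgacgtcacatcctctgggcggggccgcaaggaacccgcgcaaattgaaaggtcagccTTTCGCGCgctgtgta
POLQ (chr3:121264816-121264935, - strand): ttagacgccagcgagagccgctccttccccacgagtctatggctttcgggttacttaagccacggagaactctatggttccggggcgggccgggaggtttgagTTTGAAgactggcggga
BRIP1 (chr17:59940870-59940989, - strand): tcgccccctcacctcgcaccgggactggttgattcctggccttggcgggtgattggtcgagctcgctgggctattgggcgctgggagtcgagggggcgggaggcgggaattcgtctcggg
MUS81 (chr11:65627804-65627923, + strand): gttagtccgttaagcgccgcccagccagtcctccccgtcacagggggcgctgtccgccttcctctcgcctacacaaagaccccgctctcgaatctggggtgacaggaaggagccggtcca
RAD52 (chr12:1058841-1058960, - strand): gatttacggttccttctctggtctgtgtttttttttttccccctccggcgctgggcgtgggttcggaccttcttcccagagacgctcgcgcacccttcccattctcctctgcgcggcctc

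Without AMG900, 21 members differed between the DMSO libraries of the lines: 13 were lower in H1792, where 31.9% of all genes were, and 8 were higher, where 34.2% were. Line, medium, depth and count table cannot be told apart in this comparison. BRCA1 was the furthest below, at 0.868 CPM per kb of exon in H1792 and 3.10 CPM per kb in A549, a log2 difference of -1.84 ± 0.13 (adjusted p = 8.7e-11), followed by RAD51D (-1.70) and GEN1 (-1.51). CHEK2 and RAD54L were the furthest above, at 7.45 and 12.1 CPM per kb in H1792 and 1.79 and 3.09 CPM per kb in A549, with log2 differences of 1.98 and 1.92. UBE2T had the highest level per length of all members in both lines, 16.9 CPM per kb in A549 and 18.2 CPM per kb in H1792, and did not pass (0.09 ± 0.12). The calls of EXO1 (-0.57), FAN1 (-0.62) and FANCB (1.43) were lost in some alternatives: that of EXO1 after the GC correction and without A549 DMSO replicate 3 or H1792 DMSO replicate 1, that of FAN1 without H1792 DMSO replicate 1, and that of FANCB after the GC correction, with total counts, and without A549 or H1792 DMSO replicate 2 or 3.

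**Figure D4:**
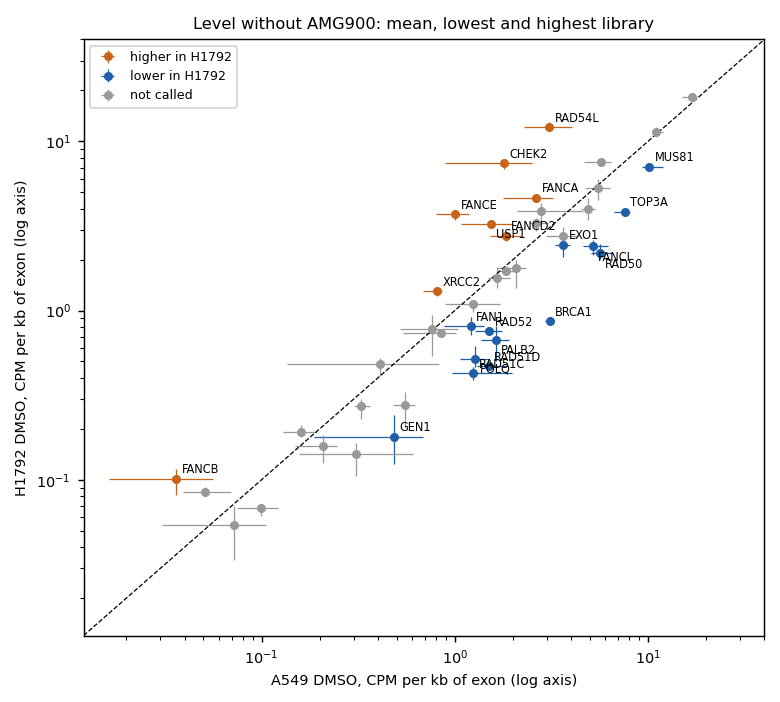
Mean DMSO level of each gene in CPM per kb of exon in A549 (x axis) and H1792 (y axis), both log axes, with bars from the lowest to the highest library and a dashed line of equal levels. Genes called between the lines are coloured and named, 13 below and 8 above the line.

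Other gene lists, also chosen with earlier results of these data known, were counted beside the members. For comparison, 17.7% of all genes tested were lower and 17.2% higher in A549, and 18.8% and 16.2% in H1792. Some of the list counts below lie near these shares. The list of 30 S-phase genes that are no members fell furthest: all 29 tested were downregulated in A549, with a median of -2.40, and 18 of 30 in H1792, with a median of -0.55. It was led by E2F8, a repressor of the E2F family, in A549 (-4.70 ± 0.56, adjusted p = 9.47e-06) and by the chromatin factor ATAD2 in H1792 (-1.61 ± 0.14, adjusted p = 1.38e-05). The part of S-phase content in the members' change was not tested.

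Of 36 other recombination and Fanconi factors, 13 of 33 tested were lower and 5 higher in A549, and 6 of 34 lower and 3 higher in H1792. MND1, an accessory factor of meiotic recombination, had the largest decrease in A549 (-5.34 ± 0.69), DNA2, a resection nuclease, that of H1792 (-1.40 ± 0.26), and BRE, a subunit of the BRCA1-A complex, the largest increase in both lines (0.53 and 0.49). Of 20 checkpoint and break response genes, 12 of 19 tested were lower in A549, led by CLSPN (-3.41), the adaptor by which ATR reaches CHEK1. In H1792, 9 of 20 were lower, led by the scaffold MDC1 (-2.48), and RAD9A was higher (0.26).

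The lists of pathways that do not copy a sister chromatid had median log2 fold changes between -0.38 and -0.12 in A549 and between -0.15 and -0.05 in H1792. Of 12 non-homologous end joining genes, 2 were lower and 2 higher in A549, led by XRCC5 (-0.57) and POLL (0.74), and 2 were lower in H1792, led by XRCC4 (-0.85). Mismatch repair had 3 of 7 lower in A549 and 2 lower and 2 higher in H1792, with MSH6 leading the decreases of both lines (-1.79 and -1.10) and MLH3 the increase (0.56). Base excision repair had 6 of 19 lower in A549, led by NEIL3 (-2.79), and 5 lower and 3 higher in H1792, the former led by UNG (-0.89), while SMUG1 rose in A549 (0.41) and NEIL1 led the increases in H1792 (0.85). Nucleotide excision repair had 2 of 15 tested lower in A549 and 1 of 16 in H1792, led by RAD23B in both (-0.53 and -0.43), and the damage sensor XPC was higher in A549 (0.86).

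**Figure D5:**
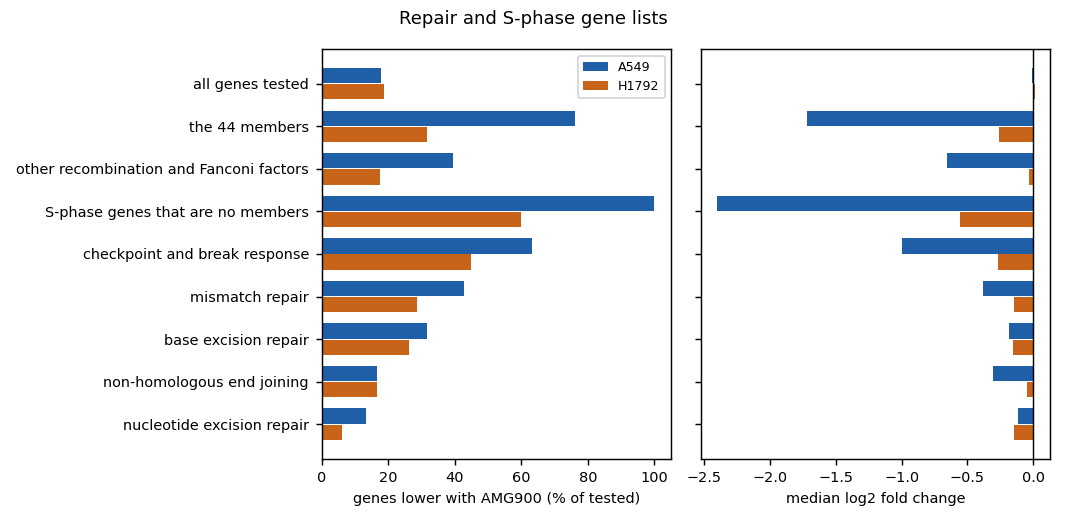
Share of tested genes that were downregulated (left, percent) and median log2 fold change (right) for the 44 members, 7 other lists and all genes tested, in A549 (blue) and H1792 (orange). The S-phase list and the members have the longest A549 bars.

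Members that fell had a lower median GC content of their transcripts than members not called, in both lines. Across all genes tested, the log2 fold change and the GC content of a transcript had a Spearman correlation of 0.488 over 12788 genes in A549 and of 0.47 over 14373 genes in H1792, described across genes that share libraries. Over the members alone, that correlation was 0.267 in A549 and 0.494 in H1792. The 32 downregulated members of A549 had a median GC content of 41.7% and the 10 not called one of 45.8%. The 14 downregulated members of H1792 had a median GC content of 39.6% and the 29 not called one of 42.3%. After the correction for GC content, 30 members were lower and 0 higher in A549, with a median of -1.51. In H1792, 11 were lower and 3 higher, with a median of -0.08. XRCC3 (-0.39), FANCE (-0.50) and FANCG (-0.30) were new among those 11. ATR, NBN, BRCA1, BRIP1, FANCM and UBE2T lost their H1792 calls with the correction. RMI1, USP1 and RAD54B remained lower in H1792 after it, at -1.78, -1.40 and -1.20 on the log2 scale. The part of base composition in the members' values was not tested further.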

How the data were processed

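Total RNA (RNeasy kit) was sequenced on a NextSeq 500. The authors deposited whole-number counts of reads per gene symbol, not normalized, in a table per line. The submitters' processing notes name STAR, HTSeq, hg19 and GRCh37, without versions. Strand setting and annotation are not given in the sources used here, so reads of overlapping or antisense genes cannot be told apart. In the H1792 table, 28 entries that bear calendar dates (0.101% to 0.117% of counts) were left out.

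Genes were kept by filterByExpr, scaled by TMM factors and tested with the quasi-likelihood test of edgeR 4.0.16 in R 4.3.3 (limma 3.58.1), with Benjamini-Hochberg adjustment over all genes tested and a threshold of 0.01. The SE is the log2 fold change divided by the root of F. The interaction and the DMSO comparison used 1 fit over 14 libraries. DESeq2 1.42.0, which the study used, was an alternative. The biological coefficient of variation, 12.8% for A549 and 9.6% for H1792, limits precision beside depth. Replicate numbers did not pair libraries, so no block was used.

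Alternatives were DESeq2, its size factors, scaling by total counts, no filter, a replicate block, a minimum of 10 counts in each library, a threshold of 0.05, changes of at least 2-fold, a GC correction (spline, 5 degrees of freedom), 1 fit for both lines, and leaving out each library. Where alternatives are counted for a single member, the threshold of 0.05 and changes of at least 2-fold are left out. GC content and exon length are from GENCODE for GRCh37. Promoter windows are from a RefSeq table of GRCh38.p14, and printed stretches were placed on GRCh37 by exact match. Steps were tested on simulated data. The members and lists were chosen with earlier results of these data known. Values in every library are given for the 8 members with the largest change in A549, the 8 called in H1792 with the largest change of at least 0.5, the 3 with the largest difference between lines in each direction, and the 4 kinases. Of each other list, the genes with the largest called increase and decrease in either line are named.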

Additional observations from a re-analysis of the deposited data

Results flagged for a closer look

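Within A549, a library stood far from the others of its group for 5 of 84 groups of 4 member values, by the ratio of its gap to the nearest library and the range of the group (Dixon's 95% limit), where chance flags about 1 in 20. In the DMSO group, replicate 1 was the highest for RBBP8 (ratio 0.924), RAD51C (0.850) and MUS81 (0.941). In the AMG900 group, replicate 3 was the highest for RMI2 (0.836) and replicate 1 the lowest for SLX4 (0.836).

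The response to AMG900 differed between the lines by the interaction test for 21 members, given here as the log2 fold change in H1792 minus that in A549. Line, medium, depth and count table cannot be told apart in that test. The differences were 3.70 for EXO1, 3.20 for POLQ, 3.11 for BLM, 3.09 for XRCC2, 3.08 for EME1 and 3.06 for RAD51AP1. They were 2.82 for RAD54L, 2.74 for FANCD2, 2.58 for BARD1, 2.57 for FANCI, 2.33 for RMI2, 2.27 for FANCA, 2.25 for BRIP1 and 2.06 for GEN1. They were 1.93 for BRCA1, 1.93 for XRCC3, 1.48 for FANCG, 1.47 for RBBP8, 1.41 for UBE2T, 1.17 for FANCC and 0.69 for TOP3A.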

How the results depend on the processing

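With at least 10 counts in every library, 21 members were lower in A549: 10 of the 32 were not tested, and RAD50 was tested and lost its call. The A549 median was -1.79 with total counts, -1.87 without a filter, -1.27 with at least 10 counts, -1.51 with the GC correction, -1.81 in 1 fit for both lines, and between -1.91 and -1.72 with a library left out. In H1792, 8 members were lower by at least 2-fold, and 3 (GC correction), 0 (1 fit), 2 (threshold of 0.05) and 0 (at least 2-fold) were higher. The H1792 median was -0.081 with the GC correction. That correction reversed RAD50 in A549 (0.022) and FANCL (0.502) and UBE2T (0.089) in H1792; the cause was not tested. With a library left out, 29 to 35 members were lower in A549, 11 to 18 in H1792, 20 to 23 were called by the interaction and 20 to 23 between the DMSO libraries.

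With the replicate block, 30 members were lower in A549 and 13 in H1792, though same-numbered libraries did not deviate together (correlations down to -0.060). It ended the calls of RAD50, PALB2 and RAD51D in A549, UBE2T in H1792 and BRIP1 in the interaction, and added ATR in A549. In every alternative that tested them, calls held for 28 of 32 downregulated A549 members, 7 of 15 called in H1792, 20 of 21 of the interaction and 18 of 21 between DMSO libraries. Depth limits FANCM, BRIP1, BRCA2, FANCB, RAD54B, RMI1 and BARD1 in A549, among others.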
